A study of Mus musculus with 4 samples.

Results

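The genes described here make cholesterol and fatty acids in the cell. They were chosen by name for their place in these pathways, with earlier results of these data known. They number 33 of the 53845 genes in the count table. The list held 18 enzymes of sterol synthesis, 6 genes of SREBP (sterol regulatory element binding protein) regulation and sterol transport, and 9 enzymes of fatty acid synthesis, elongation and desaturation. Expression was measured by RNA-seq in crypts, the epithelial pits of the intestine that hold its stem cells, released with EDTA from C57BL/6 mice. There were 2 libraries from WT (wildtype) mice and 2 from Vil-CREPTKO mice, in which a Cre recombinase under the villin promoter deletes floxed CREPT (gene Rprd1b, an RNA polymerase II binding protein) in the intestinal epithelium. The study used mice of both sexes at 6 to 8 weeks of age. The sources used here state no treatment of these crypts and no pooling of animals. The question was how gene expression in crypts differs when the epithelium lacks CREPT, asked here for lipid synthesis genes, and for the sterol branch against the fatty acid branch.

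Cells build cholesterol from acetyl-CoA through mevalonate, squalene and lanosterol, and fatty acids from acetyl-CoA through malonyl-CoA. Transcription factors of the SREBP family switch on both branches. SREBP-2 (Srebf2) acts mainly on sterol genes and SREBP-1c (from Srebf1) mainly on fatty acid genes. When membrane sterol is low, SCAP carries the SREBPs from the endoplasmic reticulum to the Golgi, where they are cut and released. When sterol is high, the INSIG proteins hold SCAP back. The small intestine is, with the liver, a main site of sterol synthesis in the body, and its dividing crypt cells need new membrane.

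The libraries held 47241049 to 49369315 counts and 23887 to 24634 genes with at least 1 count. Rprd1b had 60.5 and 61.6 CPM (counts relative to the library total after TMM scaling, the unit of all levels below) in WT and 26.3 and 29.0 CPM in Vil-CREPTKO, so the knockout mean was 45.3% of WT. Deletion removes only the floxed part, and the counts are of the whole gene. For the CREPT protein left on its Western blot, the paper proposes non-epithelial cells as a possible source. The part of either in the remaining Rprd1b counts was not tested. Enterocyte markers (10 of 10 tested) summed to 14150 and 18870 CPM in WT and to 22600 and 14350 CPM in Vil-CREPTKO replicates 1 and 2. Crypt stem and progenitor markers (9 of 9 tested) summed to 3071 and 2707 CPM in WT and to 2214 and 3059 CPM in Vil-CREPTKO. By these sums, Vil-CREPTKO replicate 1 stood highest in enterocyte and lowest in crypt markers. Singly, Vil1, Apoa4 and Lct were highest, and Ascl2 lowest, in WT replicate 2 instead. Mitochondrial transcripts took 10.2% of counts in Vil-CREPTKO replicate 1 against 6.75% to 7.62% in the other libraries. Stroma markers (4 of 6 tested, none passing) summed to 4.98 and 5.73 CPM in WT and to 16.6 and 2.04 CPM in Vil-CREPTKO. Tuft cell markers (4 of 4 tested) summed to 151 and 192 CPM in WT and to 91.2 and 89.9 CPM in Vil-CREPTKO, and 2 of them, Trpm5 (34.0% of WT) and Avil (47.6%), fell at adjusted p-values of 0.00352 and 0.00630 by edgeR. Pancreas markers (4 of 4 tested, none passing) summed to 22.2 and 15.9 CPM in WT and to 46.0 and 27.0 CPM in Vil-CREPTKO. The part of these markers in the values below was not tested. WT replicate 2 had Xist at 863 CPM and no Y-linked counts, while the other 3 libraries had Y-linked counts, so the groups differed in sex makeup as well as genotype. Of 9 adipocyte markers, Adipoq, Lep and Retn had 0 counts in every library, and only Cidec and Pck1 had enough counts to be tested. In these bulk samples, fewer cells of a type and less RNA per cell cannot be told apart.

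The sequence before the start site is where SREBPs commonly act, together with the cofactors NF-Y and Sp1. The 250 bases upstream of the RefSeq start are shown for Hmgcs1, an enzyme at the start of sterol synthesis. They are also shown for Cyp51 and Insig1, textbook SREBP targets that lay at opposite ends of the differences described below. Sequences are from RefSeq (build GRCm38.p6), 5′ to 3′ on the gene's strand, at chr13:119690101-119690350 (plus strand), chr5:4104698-4104947 (minus strand) and chr5:28071162-28071411 (plus strand). Capitals mark matches on either strand to TCACNCCAC (a sterol regulatory element core), CCAAT (NF-Y), GGGCGG (Sp1) and CACGTG (an E-box).
Hmgcs1: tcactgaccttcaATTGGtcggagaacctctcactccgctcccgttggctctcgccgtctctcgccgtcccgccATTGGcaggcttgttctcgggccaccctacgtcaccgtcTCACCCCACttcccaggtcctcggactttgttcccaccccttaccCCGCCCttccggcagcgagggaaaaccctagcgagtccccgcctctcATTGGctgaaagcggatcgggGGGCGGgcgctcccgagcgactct
Cyp51: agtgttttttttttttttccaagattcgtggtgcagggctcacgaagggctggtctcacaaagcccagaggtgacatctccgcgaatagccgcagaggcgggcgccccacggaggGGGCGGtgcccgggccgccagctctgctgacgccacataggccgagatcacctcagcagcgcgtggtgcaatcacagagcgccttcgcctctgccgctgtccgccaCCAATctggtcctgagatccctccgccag
Insig1: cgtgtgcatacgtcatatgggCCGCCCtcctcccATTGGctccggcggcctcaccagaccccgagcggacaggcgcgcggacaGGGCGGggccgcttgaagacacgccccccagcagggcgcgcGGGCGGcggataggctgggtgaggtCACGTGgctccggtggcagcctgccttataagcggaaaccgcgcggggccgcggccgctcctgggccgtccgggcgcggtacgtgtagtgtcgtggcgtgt
Hmgcs1 held the sterol regulatory element core, 129 to 137 bases before the start, with 3 CCAAT and 2 GGGCGG matches around it. Cyp51 held 1 CCAAT and 1 GGGCGG match, and Insig1 held 1 CCAAT, 3 GGGCGG and 1 CACGTG match. The gene bounds of Cyp51 and Insig1 given below are from another annotation, GENCODE, and reach into these windows. By those bounds the last bases of both sequences, with the Cyp51 CCAAT match, lie inside the gene. These motifs do not overlap one another in the 3 sequences. RefSeq windows (250 bases before to 50 after the start) were at hand for 26 of the 33 genes, 34 windows in all. Those for Fdps, Fdft1, Sqle, Stard4, Scd1, Scd2 and Fads1 were not used here. CCAAT stood in 64.7% of the 34 windows against 37.4% of all 32851 windows, and GGGCGG in 73.5% against 35.7%. CACGTG stood in 20.6% against 7.15%, and TCACNCCAC in 1 window (2.94%) against 1.24%. The windows of all genes were not matched to the members for expression or base composition, and some genes had more than 1 window. A match describes letters in these windows and not a bound site. Only this form of the sterol regulatory element was searched, so the lack of a match in Cyp51 or Insig1 does not mean that they lack such an element.

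All 33 genes had enough counts to be tested, and none passed an adjusted p of 0.05 in edgeR's quasi-likelihood test, adjusted by Benjamini-Hochberg over 17504 genes. Among all genes tested, 474 passed, or 2.71%, 400 lower and 74 higher in Vil-CREPTKO. With a fold change over 2 required as well, 287 genes (1.64%) passed, and again none of the 33. DESeq2 passed 1 of them, Cyp51, with an adjusted p of 0.038. At an unadjusted p under 0.05, 7 of the 33 stood out, 4 higher in Vil-CREPTKO (Cyp51, Msmo1, Hsd17b7, Insig2) and 3 lower (Insig1, Srebf1, Fads2). Of all genes tested 14.3% did so, 786 higher and 1709 lower. The 2 libraries of one group did not overlap those of the other in CPM for 12 of the 33, 8 higher and 4 lower, against 45.1% of all genes.

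The list as a whole sat close to 0. Log2 fold changes of Vil-CREPTKO against WT ran from -0.50 (Scd1) to 0.47 (Cyp51), 17 positive and 16 negative. The sign turned under at least 1 of the alternative analyses for 18 of the 33, so these counts of signs depend on scaling and on single libraries. Their median was 0.025, beside -0.0060 for all genes tested, and their median size without sign was 0.11, beside 0.218 for all genes. For 31 of the 33 (93.9%), the 95% interval of the log2 fold change lay wholly within a 2-fold difference in either direction, which held for 60.2% of all genes tested. The exceptions were Fdps and Scd1, the members with the fewest counts. The other members had WT means of 17.7 CPM or more, while all genes tested reached down to 0 CPM. Intervals and fold changes are wider at low counts, and the comparisons with all genes were not matched for level.

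**Figure D1:**
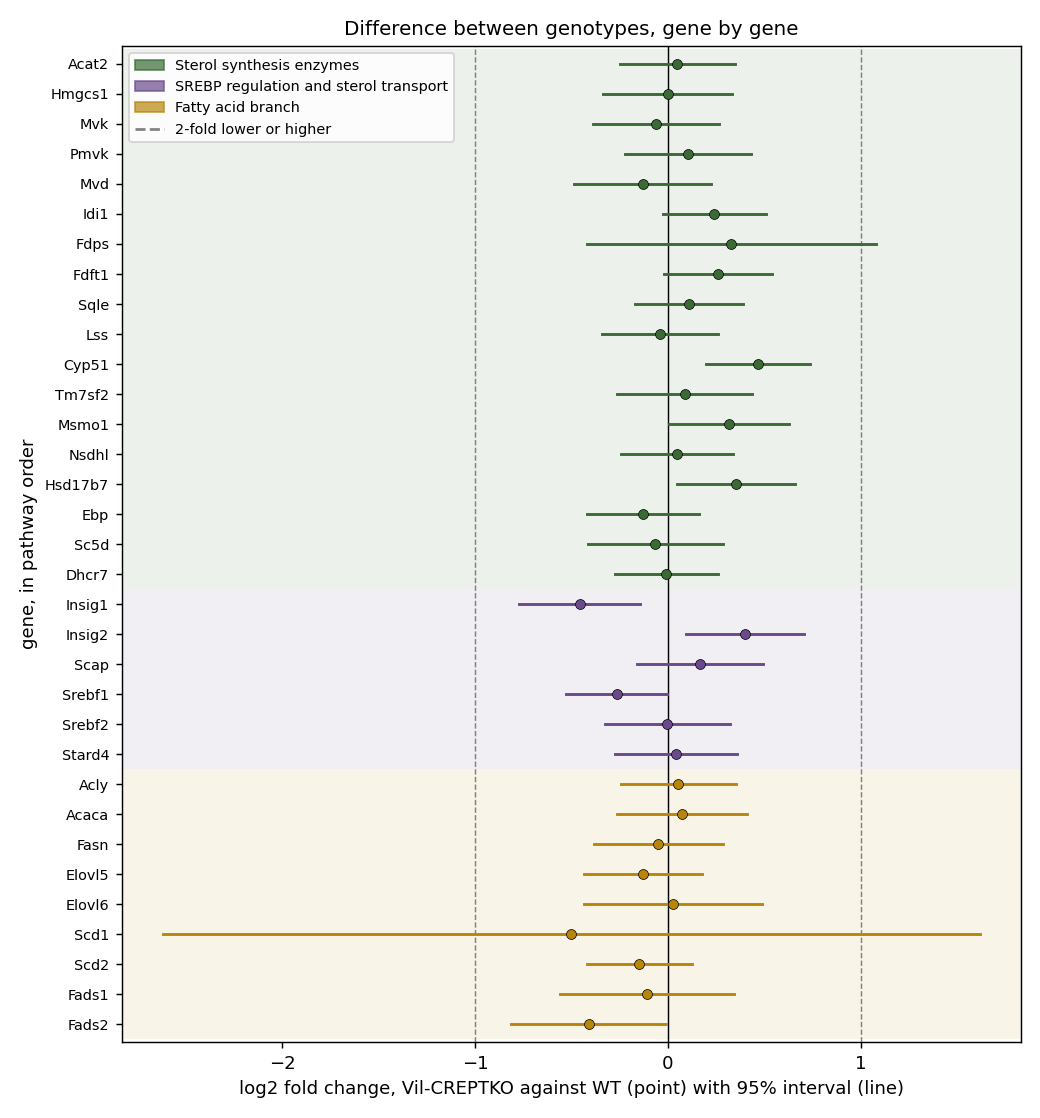
Log2 fold change of Vil-CREPTKO against WT (x axis) for each of the 33 genes in pathway order (y axis), with the 95% interval as a line and dashed lines at a 2-fold difference; green, sterol synthesis; purple, SREBP regulation; ochre, fatty acid branch. Cyp51 (0.47) and Insig2 (0.40) lie farthest to the right and Insig1 (-0.46) to the left among well-measured genes, and only the Fdps and Scd1 lines cross a dashed line.

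Sterol synthesis opens with 7 genes of the mevalonate steps. Hmgcs1, which joins acetyl-CoA to acetoacetyl-CoA, had 104 and 130 CPM in WT and 111 and 123 CPM in Vil-CREPTKO. The knockout values lay between those of WT, and the log2 fold change was -0.0003 (SE 0.15, adjusted p = 1.0 by edgeR). Acat2, which makes acetoacetyl-CoA, the kinase genes Mvk and Pmvk, and Mvd, the decarboxylase that ends the series, had log2 fold changes of -0.13 (Mvd) to 0.11 (Pmvk). Idi1, the isomerase of the isoprene units, had 39.1 and 39.4 CPM in WT and 45.1 and 47.6 CPM in Vil-CREPTKO. Both Idi1 knockout values lay above both WT values, with a log2 fold change of 0.24 (SE 0.12, adjusted p = 0.41 by edgeR). Fdps, which makes farnesyl diphosphate, was read at 2.00 and 1.50 CPM in WT and 2.14 and 2.26 CPM in Vil-CREPTKO, with a log2 fold change of 0.33 (SE 0.33, adjusted p = 0.727 by edgeR). Its level is uncertain, since 77.3% of its 50-base words also occur in the overlapping gene Gm43738 and 40.1% in Gm3571. Acat2 shares 45.9% of its words with Acat3 (21 to 35 counts), and Idi1 21.3% with Gm13502. The median over the 7 genes was 0.049.

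The 11 genes from squalene onward had a median of 0.087, and the members with the largest positive values are here. Fdft1, squalene synthase, had 45.3 and 49.5 CPM in WT and 53.8 and 59.7 CPM in Vil-CREPTKO. Its groups did not overlap, and the log2 fold change was 0.26 (SE 0.12, adjusted p = 0.391 by edgeR). Fdft1 shares 18.3% of its exon length with Ctsb on the opposite strand. Sqle, squalene epoxidase and a rate-limiting step, had 58.4 and 66.8 CPM in WT and 64.5 and 70.5 CPM in Vil-CREPTKO, with overlapping groups and a log2 fold change of 0.11 (SE 0.12, adjusted p = 0.763 by edgeR). Lss, which closes the ring to lanosterol, had a log2 fold change of -0.042.

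Cyp51 (ENSMUSG00000001467, chr5:4081145-4104746, minus strand of GRCm38), the cytochrome P450 that removes the 14-alpha methyl group of lanosterol, had the smallest adjusted p of the list. It had 82.6 and 87.5 CPM in WT (85.1 ± 3.51, SD, n = 2) and 115 and 121 CPM in Vil-CREPTKO (118 ± 4.32, SD, n = 2). Both knockout libraries lay well above both WT libraries. The log2 fold change was 0.47 (SE 0.12, 95% interval 0.20 to 0.74), with an edgeR adjusted p of 0.0866. Over the 13 alternative analyses it stayed between 0.38 and 0.51, with adjusted p-values of 0.038 to 0.358, under 0.05 in 2 of them. With WT replicate 2 left out, which leaves libraries of 1 sex, the log2 fold change was 0.51 (adjusted p = 0.247 by edgeR).

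The enzymes that follow Cyp51 trim lanosterol to cholesterol. Msmo1, the C4-methyl oxidase, had 85.2 and 82.2 CPM in WT and 115 and 93.1 CPM in Vil-CREPTKO, which gave a log2 fold change of 0.32 (SE 0.14, adjusted p = 0.34 by edgeR). Hsd17b7, the 3-keto reductase of the same demethylation, had 24.4 and 28.2 CPM in WT and 34.2 and 33.1 CPM in Vil-CREPTKO, which gave a log2 fold change of 0.35 (SE 0.14, adjusted p = 0.265 by edgeR). For Msmo1 as for Hsd17b7, the knockout libraries lay above WT without passing the adjusted threshold. Nsdhl, the decarboxylase that works with them, was nearly level, at 32.7 and 30.5 CPM in WT and 31.5 and 33.8 CPM in Vil-CREPTKO. The reductases Tm7sf2 and Dhcr7, the isomerase Ebp and the desaturase Sc5d had log2 fold changes of -0.13 (Ebp) to 0.087 (Tm7sf2), with overlapping groups in each. Idi1, Msmo1 and Nsdhl were picked for description after their values were seen.

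**Figure D2:**
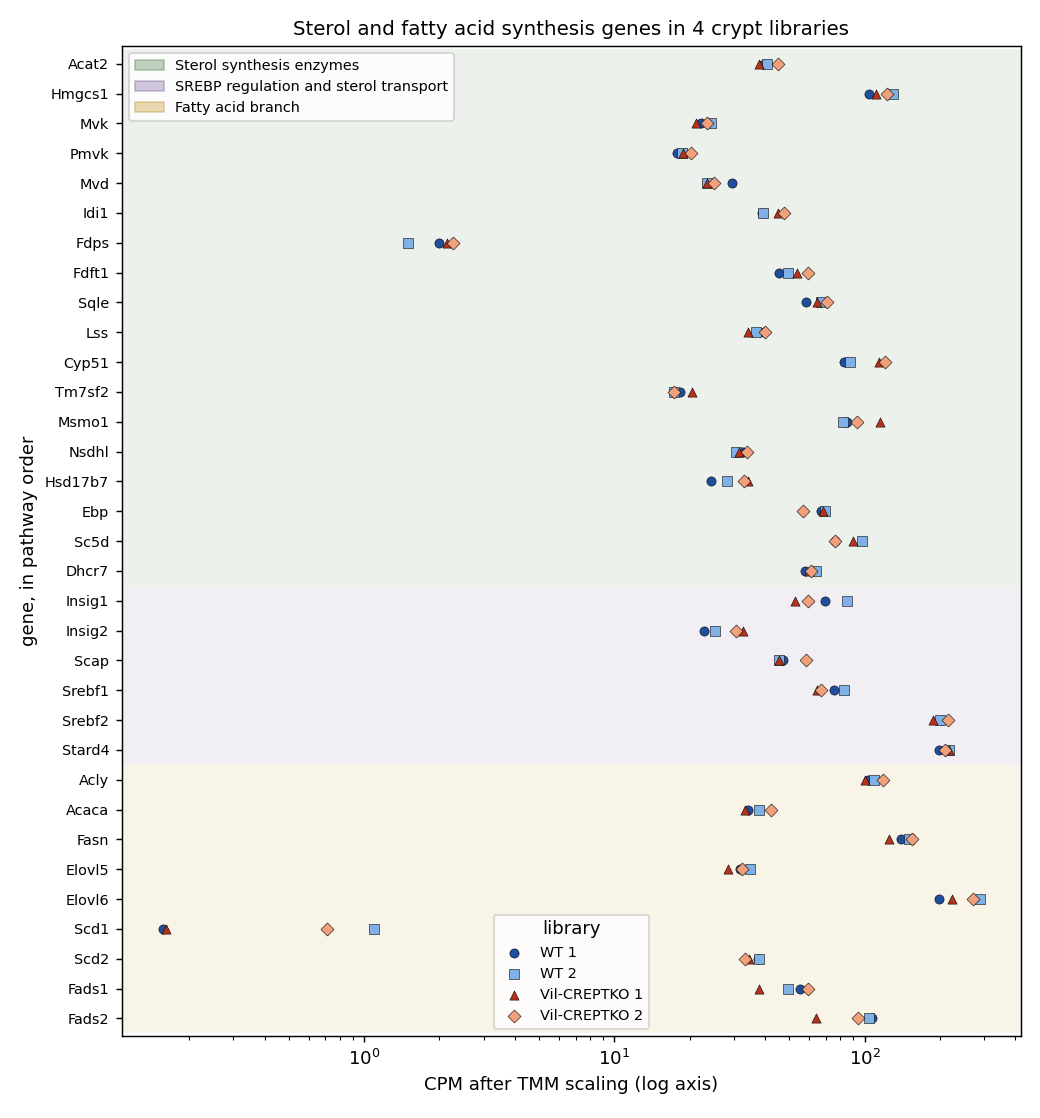
CPM after TMM scaling (x axis, log scale) of the 33 genes (y axis, pathway order) in WT replicates 1 and 2 (blue) and Vil-CREPTKO replicates 1 and 2 (red and orange), with shading by branch. All but Fdps (1.50 to 2.26 CPM) and Scd1 (0.157 to 1.10 CPM) lie at 17.3 CPM or above in every library, and the symbols of the groups intermix for 21 of the 33.

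Insig1 and Insig2, which encode the anchors that retain SCAP and the SREBPs, lay on opposite sides of WT. Insig1 (ENSMUSG00000045294, chr5:28071363-28078662, plus strand) had 69.2 and 84.8 CPM in WT and 52.9 and 59.2 CPM in Vil-CREPTKO. Both knockout values were below both WT values, and the log2 fold change was -0.46 (SE 0.14, 95% interval -0.77 to -0.15, adjusted p = 0.149 by edgeR). Insig2 (ENSMUSG00000003721, chr1:121304353-121332589, minus strand) had 22.7 and 25.2 CPM in WT and 32.7 and 30.6 CPM in Vil-CREPTKO. Here both knockout values were above both WT values, and the log2 fold change was 0.40 (SE 0.13, 95% interval 0.092 to 0.71, adjusted p = 0.201 by edgeR). Insig1 is itself an SREBP target, and Insig2 is known as the less sterol-responsive of the pair. Neither gene passed the adjusted threshold in any of the 13 alternatives, in which Insig1 ran from -0.60 to -0.30 and Insig2 from 0.31 to 0.48. The weakest Insig1 value, -0.30 with an edgeR adjusted p of 0.608, was the one without WT replicate 2, the library of the other sex.

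The SREBP genes themselves come next. Srebf2 had 204 and 200 CPM in WT and 188 and 215 CPM in Vil-CREPTKO, so WT lay inside the knockout range, with a log2 fold change of -0.0029 (SE 0.14, adjusted p = 0.996 by edgeR). Srebf1, whose transcripts code for SREBP-1a and SREBP-1c and cannot be parted in counts per gene, had 75.1 and 82.5 CPM in WT and 64.4 and 66.8 CPM in Vil-CREPTKO. The Srebf1 knockout values lay below WT, with a log2 fold change of -0.27 (SE 0.12, adjusted p = 0.343 by edgeR). It stayed negative in all 13 alternatives, from -0.35 to -0.11, the last with the correction for GC content and length. Scap, the escort, had 47.1 and 45.6 CPM in WT and 45.5 and 58.5 CPM in Vil-CREPTKO, where only replicate 2 was high. Stard4, a carrier of sterol between membranes and an SREBP-2 target, had 198 and 217 CPM in WT and 217 and 210 CPM in Vil-CREPTKO, overlapping closely.

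Fatty acid synthesis starts with Acly, which splits citrate to acetyl-CoA, at 103 and 109 CPM in WT and 101 and 119 CPM in Vil-CREPTKO. Acaca, acetyl-CoA carboxylase and the committed step, had 34.1 and 37.9 CPM in WT and 33.4 and 42.4 CPM in Vil-CREPTKO, with a log2 fold change of 0.073 (SE 0.15, adjusted p = 0.889 by edgeR). Of its 50-base words, 52.6% also occur in Gm5182, which had 314 to 433 counts. Fasn, fatty acid synthase, had 139 and 151 CPM in WT and 126 and 155 CPM in Vil-CREPTKO, with a log2 fold change of -0.049 (SE 0.15, adjusted p = 0.927 by edgeR). In each of these 3 genes Vil-CREPTKO replicate 1 was the lowest library and replicate 2 the highest, with WT between them.

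The elongases Elovl5 and Elovl6, which lengthen polyunsaturated and saturated chains, had log2 fold changes of -0.13 and 0.025. Elovl6 ran from 198 to 288 CPM within WT alone, a wider range than the 223 to 272 CPM of Vil-CREPTKO. The desaturases follow. Scd1, the stearoyl-CoA desaturase prominent in liver and fat, was barely present, with 8 and 54 counts in WT and 7 and 35 in Vil-CREPTKO (0.157, 1.10, 0.161 and 0.713 CPM). Its log2 fold change of -0.50 (SE 0.93, adjusted p = 0.875 by edgeR) could not be told from 0, and it changed sign when WT replicate 2 (1.48) or Vil-CREPTKO replicate 1 (0.19) was left out. Scd2 was the desaturase of this family that the crypts expressed, at 37.5 and 37.7 CPM in WT and 34.7 and 33.3 CPM in Vil-CREPTKO, which gave a log2 fold change of -0.15 (SE 0.12, adjusted p = 0.654 by edgeR).

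Fads2 (ENSMUSG00000024665, chr19:10062765-10101746, minus strand), the delta-6 desaturase of polyunsaturated fatty acids, had 107 and 104 CPM in WT and 64.1 and 94.4 CPM in Vil-CREPTKO. Its log2 fold change was -0.41 (SE 0.18, 95% interval -0.81 to -0.0091), with an edgeR adjusted p of 0.336. That value rested mainly on Vil-CREPTKO replicate 1. Without Vil-CREPTKO replicate 2 it was -0.71 (adjusted p = 0.0204 by edgeR), and without replicate 1 it was -0.16 (adjusted p = 0.76 by edgeR). Fads1, the delta-5 desaturase encoded next to it, was also lowest in that library, at 55.1 and 49.6 CPM in WT and 37.7 and 59.5 CPM in Vil-CREPTKO. The library is the one that stood lowest in summed crypt markers and highest in summed enterocyte markers, and the part of these markers in the Fads2 value was not tested.

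By branch, the median log2 fold change was 0.068 over the 18 sterol enzymes (11 positive, 7 negative), 0.020 over the 6 regulators and -0.11 over the 9 fatty acid genes (3 positive, 6 negative), beside -0.0060 for all genes tested. The sterol median exceeded the fatty acid median by 0.175 on the log2 scale. Library by library, Vil-CREPTKO replicate 1 had a sterol median of 0.050 against the mean of WT and replicate 2 one of 0.125. For fatty acid genes these medians were -0.21 in replicate 1 and 0.167 in replicate 2, so the knockout libraries lay on opposite sides of WT. Without Vil-CREPTKO replicate 1 the order of the branches turned, with 0.122 for sterol and 0.158 for fatty acid genes, a difference of -0.036. In the other 12 alternatives, the sterol median was higher by 0.122 to 0.255, although the fatty acid median itself was 0.005 with the correction for GC content and length. Medians of crypt stem and progenitor markers in the same libraries were -0.41 in replicate 1 and 0.091 in replicate 2, and those of enterocyte markers 0.435 and -0.070. Their part in the branch medians was not tested, and the difference between branches was not tested because genes of the same libraries are not replicates.

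**Figure D3:**
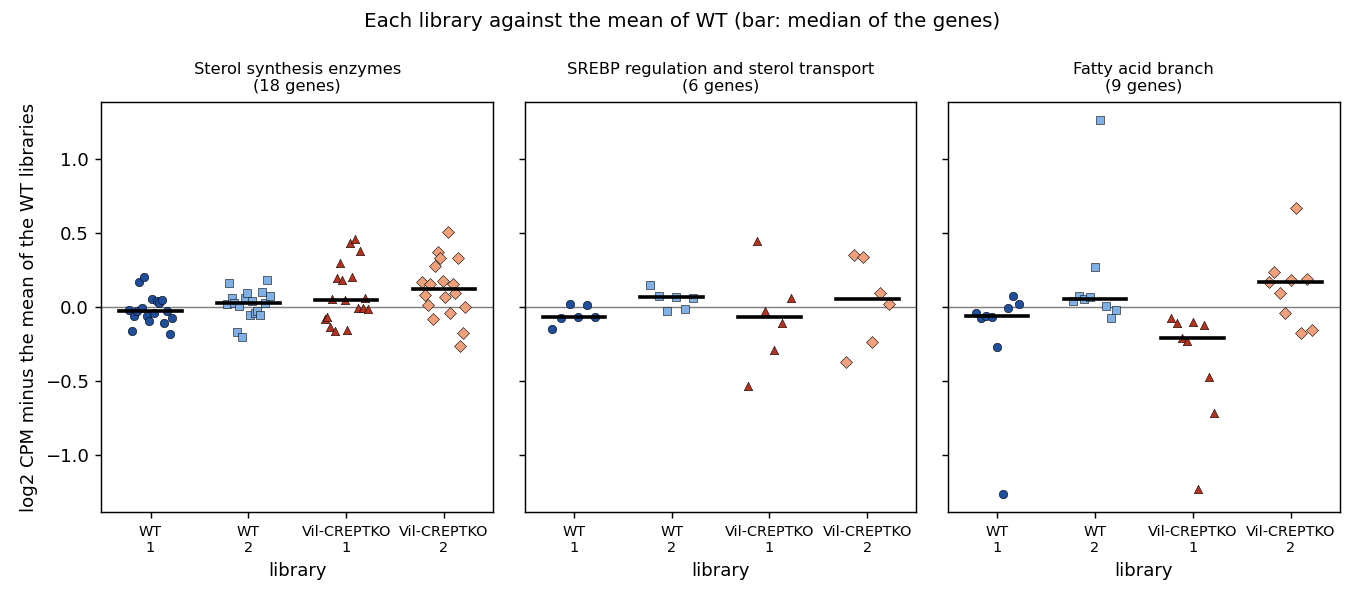
Log2 CPM minus the mean of the WT libraries (y axis) for every gene of the 3 branches, in each of the 4 libraries (x axis), with black bars at the median of the genes. The fatty acid bars lie at -0.21 in Vil-CREPTKO replicate 1 and 0.167 in replicate 2, while the sterol bars lie at 0.050 and 0.125.

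A further pattern, noticed after the values were seen, ran with the replicate numbers. Replicate 2 exceeded replicate 1 in WT and again in Vil-CREPTKO for 17 of the 33 genes (51.5%), compared with 24.6% of all genes tested. The reverse, replicate 1 above replicate 2 in each group, held for 2 of the 33 (6.06%) compared with 24.7%. The 17 were 9 sterol enzymes (among them Hmgcs1, Sqle, Fdft1 and Cyp51), Insig1 and Srebf1, and 6 of the 9 fatty acid genes (Acly, Acaca, Fasn, Elovl5, Elovl6 and Scd1). Among them, Pmvk, Idi1, Fdft1, Cyp51, Insig1 and Srebf1 also had genotype groups that did not overlap. For Hmgcs1, Sqle, Fasn and Elovl6, the step from replicate 1 to replicate 2 was seen within both genotypes while the genotype means lay within 0.11 of each other on the log2 scale. Nothing in the labels says that a replicate number marks a shared day or cage, and over all genes the deviations of same-numbered libraries were hardly correlated (0.0277), so this is a description of these 4 libraries. WT replicate 2 is also the library of the other sex, and Vil-CREPTKO replicate 1 the one lowest in summed crypt markers. The part of either in this pattern was not tested.

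Levels between genes were compared per kilobase of exon, as CPM per kb. In WT, Elovl6 (37.8) and Stard4 (37.1) were highest, then Fads2 (31.97), Ebp (29.6), Srebf2 (28.1) and Hmgcs1 (25.4). Scd1 (0.128) and Fdps (0.416) were lowest, and Acaca was at 2.11. The Fdps and Acaca levels are uncertain, since both share much of their sequence with other genes, as given above. Exon length joins the exons of all transcripts of a gene, which came to 17074 bases for Acaca. In Vil-CREPTKO, Elovl6 had 38.5 and Stard4 38.2, again the highest, and Fads2 had 24.0. The Elovl6 and Stard4 levels were closer than the spread of Elovl6 between the WT libraries.

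Around these 33 genes, 92 others of lipid metabolism were examined from lists by function, and 89 had enough counts to be tested. Of these, 1 fell and 2 rose at an adjusted p of 0.05, beside 2.71% of all genes tested, and all 3 also changed more than 2-fold, beside 1.64%. A count this close to the background is no result about the lists, and the 3 genes are given as single genes. The genes that rose were Scarb1 and Cyp4a10, the latter a fatty acid hydroxylase. The gene that fell feeds the synthesis branches directly. Slc25a1 (ENSMUSG00000003528, chr16:17925223-17928219, minus strand), the carrier that exports citrate from mitochondria to supply cytosolic acetyl-CoA, had 111 and 132 CPM in WT and 52.1 and 48.1 CPM in Vil-CREPTKO. Both knockout libraries lay far below both WT libraries, and their mean was 41.2% of WT. This gave a log2 fold change of -1.28 (SE 0.13, adjusted p = 0.00368 by edgeR), and Slc25a1 passed in all 13 alternatives (-1.40 to -1.13). Acly, the next enzyme on the route of citrate, had a log2 fold change of 0.053 (SE 0.13, adjusted p = 0.911 by edgeR).

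Scarb1 (ENSMUSG00000037936, chr5:125277087-125341094, minus strand), a receptor for HDL that moves cholesterol across the cell surface, had 16.9 and 20.9 CPM in WT and 47.4 and 38.4 CPM in Vil-CREPTKO. All knockout values exceeded all WT values, and Scarb1 rose with a log2 fold change of 1.18 (SE 0.16, adjusted p = 0.00868 by edgeR), passing in all 13 alternatives (1.02 to 1.35). The other 16 genes of cholesterol uptake, esterification and export did not pass, and the median of the 17 was 0.027. None of the 7 further genes of SREBP processing passed (median -0.0049, all with intervals within 2-fold), nor any of the 9 genes of the branches off the mevalonate pathway, such as prenylation and ubiquinone side chain synthesis (median 0.047). At an unadjusted p under 0.05 there were also 0 in each of these 2 lists. Of the 26 further genes of fatty acid synthesis, 23 were tested (Thrsp, Elovl3 and Scd3 were not), and Slc25a1 was the one that passed (median 0.021).

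**Figure D4:**
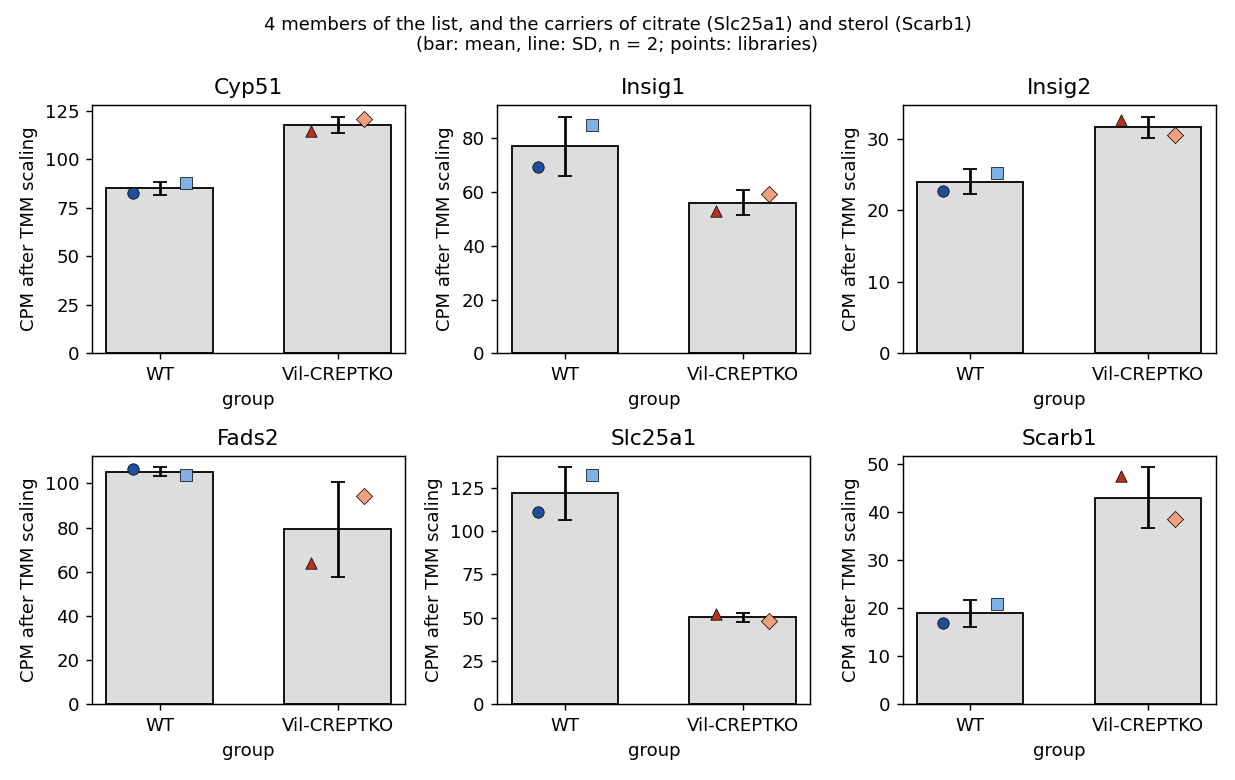
CPM after TMM scaling (y axes, from 0) in WT and Vil-CREPTKO (x axes) for Cyp51, Insig1, Insig2 and Fads2 from the list of 33 and for the carriers Slc25a1 and Scarb1; bars are means, lines SD (n = 2) and points libraries. Slc25a1 (48.1 to 52.1 CPM in Vil-CREPTKO against 111 to 132 in WT) and Scarb1 (38.4 to 47.4 against 16.9 to 20.9) passed the test, and the other 4 did not.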

How the data were processed

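RNA was measured in crypts of 2 WT and 2 Vil-CREPTKO mice (groups and replicate numbers from the sample titles). The authors deposited a table of whole-number counts, with a row for each gene and a column for each library. The study's methods and the submitters' processing notes name CASAVA 1.8, Bowtie2 mapping to transcripts of GRCm38.p6 and RSEM. Other versions, the annotation and the strand setting are not given in the sources used here, so reads of overlapping or antisense genes may have been counted for either gene. The instrument is given as BGISEQ in one source and as Illumina in another. Of 53845 genes, 53360 matched GENCODE M21 (GRCm38) by identifier, which gave symbols, coordinates and exon lengths, and 380 were unnamed.

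Counts were filtered (filterByExpr, 17504 genes), scaled by TMM and tested, two-sided, with edgeR 4.0.16 (glmQLFit, group only) in R 4.3.3. P-values were adjusted by Benjamini-Hochberg over all genes tested. Genes passed at an adjusted p under 0.05, and the stricter call also required an absolute log2 fold change over 1, the study's threshold. SE is the fold change divided by the root of F, and 95% intervals use the fitted degrees of freedom. The common biological coefficient of variation was 0.188, and 3 counts correspond to 0.0588 to 0.069 CPM. The methods state 2 biological replicates, and a figure legend of the study gives 2 mice per genotype for its crypt RNA-seq values. P-values therefore measure the spread between these libraries, of few animals. Replicates differed well beyond counting noise (chi-square per gene 49.8 in WT, 70.1 in Vil-CREPTKO). The fit was tested on simulated counts first.

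The members and lists were chosen with earlier results of these data known. Values per library were given for the 3 members of each branch with the largest absolute fold change and for genes chosen for their role (Hmgcs1, Sqle, Fdft1, Insig1, Insig2, Srebf1, Srebf2, Fasn, Acaca, Scd1, Scd2). Genes of other lists were named where they passed. Idi1, Msmo1, Nsdhl, Scap, Stard4, Acly, Elovl6 and Fads1 were added after their values were seen. Shared sequence was counted as 50-base words of GENCODE transcripts. Promoter windows were from RefSeq. Alternatives were DESeq2 1.42.0, scaling by RLE, upper quartile or library size, no low-count filter, at least 10 counts in every library, nuclear genes only, a loess correction for GC content and length (span 0.5), a replicate block and leaving out each library. Some genes of these pathways are not reported here.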

Additional observations from a re-analysis of the deposited data

How the results depend on the processing

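Each group had 2 libraries, of which WT replicate 2 differed in sex and Vil-CREPTKO replicate 1 in marker levels, so differences well under 2-fold rest on few samples. Where a library was left out, the lone sample of its group was assumed to vary like the other group. The number of members passing an adjusted p of 0.05 stayed at 0 under the 3 other scalings, the 10-count filter, nuclear genes only and the GC and length correction. It was 1 with no filter on low counts (Cyp51, adjusted p = 0.0449 by edgeR) and 1 with DESeq2 (Cyp51, 0.038), and 0 to 1 with a library left out (Fads2 without Vil-CREPTKO replicate 2). Replicate numbers did not pair the libraries (correlation of deviations 0.0277). With the number as a replicate block 0 members passed (smallest adjusted p 0.121) and 558 of all genes did, against 474. The 10-count filter dropped Scd1. With no filter 1233 genes of 28324 passed, with DESeq2 808.

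The sterol median of 0.068 became -0.025 with library-size scaling, 0.146 with the GC and length correction, 0.125 for Vil-CREPTKO replicate 2 alone, set against the WT mean, and 0.052 to 0.134 with a library left out. The regulator median of 0.020 became -0.071 with library-size scaling, 0.106 with the GC and length correction and -0.060 to 0.054 with a library left out. The fatty acid median of -0.107 was 0.167 in Vil-CREPTKO replicate 2, 0.005 with the GC and length correction and -0.20 to 0.158 with a library left out. The median of all genes was 0.012 (RLE), 0.027 (upper quartile), -0.098 (library size), 0.051 (GC and length), 0.013 (DESeq2) and -0.027 to 0.011 (a library left out). These moves with the scaling follow from its construction, and the cause of the others was not tested.

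The sign turned under at least 1 alternative for 18 of the 33 members, and 15 kept it. Apart from Scd1, the members whose sign turned had log2 fold changes of at most 0.17 in size. Those described for their role follow. Hmgcs1 was 0.02 (RLE), 0.04 (upper quartile), 0.0004 (nuclear genes), 0.0064 (GC and length), 0.0067 (replicate block), 0.01 (DESeq2) and -0.16 to 0.17 with a library left out. Srebf2 was 0.01 (RLE), 0.03 (upper quartile), 0.14 (GC and length), 0.01 (DESeq2) and -0.10 to 0.09 with a library left out. Fasn was 0.08 with the GC and length correction and -0.20 to 0.09 with a library left out. Acaca was -0.0089 with library-size scaling and -0.11 to 0.23 with a library left out, and Scd1 -1.93 to 1.48. Leaving out Vil-CREPTKO replicate 2 moved the Fads2 value to -0.71.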

Other observations

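Genes that build triglyceride and phospholipid from fatty acids, such as the acyltransferases and Mttp, which loads chylomicrons, gave none of 14 passing an adjusted p of 0.05 in edgeR's test and 1 at an unadjusted p under 0.05, beside 2.71% and 14.3% of all genes tested, so the counts mark nothing in this list. Of the 14, 12 had positive log2 fold changes, beside 8591 of all 17504 genes tested. The median was 0.197 beside -0.0060 for all genes tested. The signs in this list were not followed through the alternative analyses. Set against the WT mean, Vil-CREPTKO replicate 1 had a median of 0.385 and replicate 2 of 0.092. Enterocyte markers had medians of 0.435 and -0.070 in the same libraries, and their part in this was not tested.

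Among 19 genes of fatty acid oxidation and targets of the PPAR nuclear receptors, 16 had positive log2 fold changes, with a median of 0.168, and 1 rose. Of all 17504 genes tested, 8591 were positive and 2.71% passed. Apart from Cyp4a10, the signs in this list were not followed through the alternative analyses either. Set against the WT mean, the median of the 19 was 0.229 for Vil-CREPTKO replicate 1 and 0.108 for replicate 2, and the part of enterocyte markers, highest in replicate 1, was not tested. The gene that rose was Cyp4a10, the omega-hydroxylase of fatty acids and a PPAR-alpha target, with 2.62 and 2.99 CPM in WT and 6.72 and 8.25 CPM in Vil-CREPTKO. Its log2 fold change was 1.42 (SE 0.24, adjusted p = 0.0201 by edgeR), and it passed in all 13 alternatives (1.26 to 1.55). Fabp1, the liver-type fatty acid binding protein, was picked after its values were seen. It had 1745 and 2215 CPM in WT and 4196 and 2380 CPM in Vil-CREPTKO, where replicate 1 stood far above the rest, with a log2 fold change of 0.73 (SE 0.31, adjusted p = 0.325 by edgeR).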
